A study of Homo sapiens with 24 samples.

Results

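The genes described are 43 enzymes of amino acid metabolism and the urea cycle, chosen by name from their known roles. Earlier results of these data were known when they were chosen. All 43 were among the 26475 gene symbols in the count files. By role, 4 belong to tyrosine breakdown, 4 to tryptophan and histidine breakdown, and 7 to the urea cycle. Another 7 handle glutamine and glutamate or are transaminases, 8 belong to methionine and sulfur metabolism, and 9 to serine and glycine metabolism. The last 4 make or use asparagine, proline and ornithine.

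The liver breaks down most dietary amino acids, and hepatocytes carry out steps that few other cells perform, such as the full urea cycle and the first steps of tyrosine and tryptophan breakdown. Transaminases move amino groups onto glutamate, glutamate dehydrogenase and glutaminase release them as ammonia, and the urea cycle or glutamine synthetase then takes the ammonia up. Methionine is turned into S-adenosylmethionine, the cell's methyl donor, and several enzymes of serine, asparagine and proline synthesis are known targets of the transcription factor ATF4, which acts when amino acids are short.

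RNA was sequenced from HepG2, an established human liver cancer cell line labelled as hepatocellular carcinoma, in 24 libraries that form 8 groups of 3. The control cells received the solvent DMSO. Inhibitor alone was 50 nM ABBV-075, 50 nM ABBV-744 or 500 nM ABBV-744. A further group received interferon gamma (IFNγ), and the last 3 received IFNγ together with either dose of ABBV-744 or with ABBV-075. Both compounds inhibit BET proteins, the bromodomain proteins that read acetylated histones. ABBV-075 binds both bromodomains of these proteins, and ABBV-744 prefers the second. The study's methods give 12 h for ABBV-075 and list the DMSO cells with treatments of 24 h, so a difference in time cannot be told apart from ABBV-075 in that comparison. The times of the other groups and the dose of IFNγ are not given in the sources used here. The methods call the DMSO and ABBV-075 samples independent. Nothing says how the triplicates of the other groups were grown, so their p-values measure only the spread between these samples, which may be technical.

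The libraries held 2978982 to 4304103 reads on genes, and a level is given as CPM, the count scaled to a common library total with TMM factors over all libraries. Levels are compared between groups for one gene at a time, never between genes, because they are not divided by gene length. A log2 fold change comes from a fit to the raw counts. An adjusted p comes from the quasi-likelihood test of edgeR, adjusted by the Benjamini-Hochberg method over all genes tested, and a gene rose or fell where it was at most 0.05. The 8 hepatocyte markers, such as ALB and HNF4A, were present in all 24 libraries, and their summed level ran from 14478 to 14720 CPM with DMSO and from 12766 to 13307 CPM with ABBV-075. With ABBV-075 against DMSO the single markers ranged from a log2 fold change of -0.33 in TTR to 0.33 in FGB, neither past the threshold. The 7 markers of immune, endothelial and fibroblast cells summed to 19.0 to 22.6 CPM with DMSO and 8.43 to 14.7 CPM with ABBV-075, and PTPRC, CD3E and COL3A1 were at 0 in every library. Most of that sum was CD68, at 7.4 to 22.7 CPM over the 24 libraries, which fell by 0.81 with ABBV-075. PECAM1, VWF and COL1A1 reached at most 1.19, 0.952 and 0.634 CPM. The part of the markers in the results was not tested. HEXIM1, a gene that BET inhibitors are known to raise, rose with ABBV-075 by a log2 fold change of 1.41. With ABBV-744 at 50 nM HEXIM1 did not pass, without IFNγ (0.29, adjusted p = 0.0816) or with it (0.09, adjusted p = 0.565). At 500 nM it rose by 0.74 without IFNγ and by 0.58 with it. Correction for GC content changed none of these ABBV-744 calls. IRF1, induced by interferon, rose with IFNγ by 4.26. Libraries also differed in how gene level moved with GC content. The rank correlation across genes was 0.0972 to 0.33 in DMSO libraries, 0.553 to 0.7 with ABBV-744 at 50 nM, and -0.654 to -0.612 when IFNγ was added to that dose. With ABBV-075 it was -0.56 to 0.196, and -0.492 to -0.119 with IFNγ. Values corrected for GC content are given for ABBV-744 and, for ABBV-075, where the correction changes a call. After it, the hepatocyte markers ALB, AFP, TTR and TF fell with ABBV-075, by 0.51, 0.36, 0.45 and 0.43, and APOA1 rose by 0.36. SERPINA1, FGB and HNF4A did not pass.

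Of the 43 genes, 3 had no count in any library. These were TDO2, which opens the tryptophan ring in liver, KMO, which acts later in the same pathway, and SDS, which breaks serine down. PRODH never exceeded 1 count, ARG1 never exceeded 2, and OTC and HAL never exceeded 3, so no change could be measured in these genes of proline breakdown, the urea cycle and histidine breakdown. CBS, which starts the conversion of homocysteine to cysteine, had 2 to 20 counts and passed the filter in none of the 9 comparisons of 2 groups. GNMT had 4 to 16 counts and passed in 3 of them, and TAT had 0 to 23 counts and passed in 5. Reads that align to several places were not counted, so genes with near-identical copies, such as CBS, GLUD1 and ASS1, have uncertain levels.

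Most of the enzymes with enough reads were lower with ABBV-075. Of 34 genes tested against DMSO, 21 fell, 2 rose and 11 did not pass. Over all genes, 19.6% fell and 19.8% rose, and the median log2 fold change was -0.63 for the enzymes and 0.03 for all genes. A drop of at least 1.5 on the log2 scale was met by 5 enzymes, namely TAT, KYNU, NAGS, MAT1A and BHMT2, and by 3.19% of all genes. With IFNγ in both groups, 27 of 34 fell and 2 rose, against 28.4% and 28.2% of all genes, with a median of -0.79, and the same 5 met the stricter drop, as did 3.75% of all genes. After correction for GC content the counts were 22 lower and 2 higher without IFNγ, and 24 and 3 with it. Those libraries are separate from the ones without IFNγ. All 21 genes that fell without IFNγ also fell with it, which is 100% of the first list and 77.8% of the second. How many of all genes fell in both comparisons was not counted, so this overlap has no background beside it. In bulk RNA, fewer cells of a kind and less RNA per cell cannot be told apart.

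**Figure D1:**
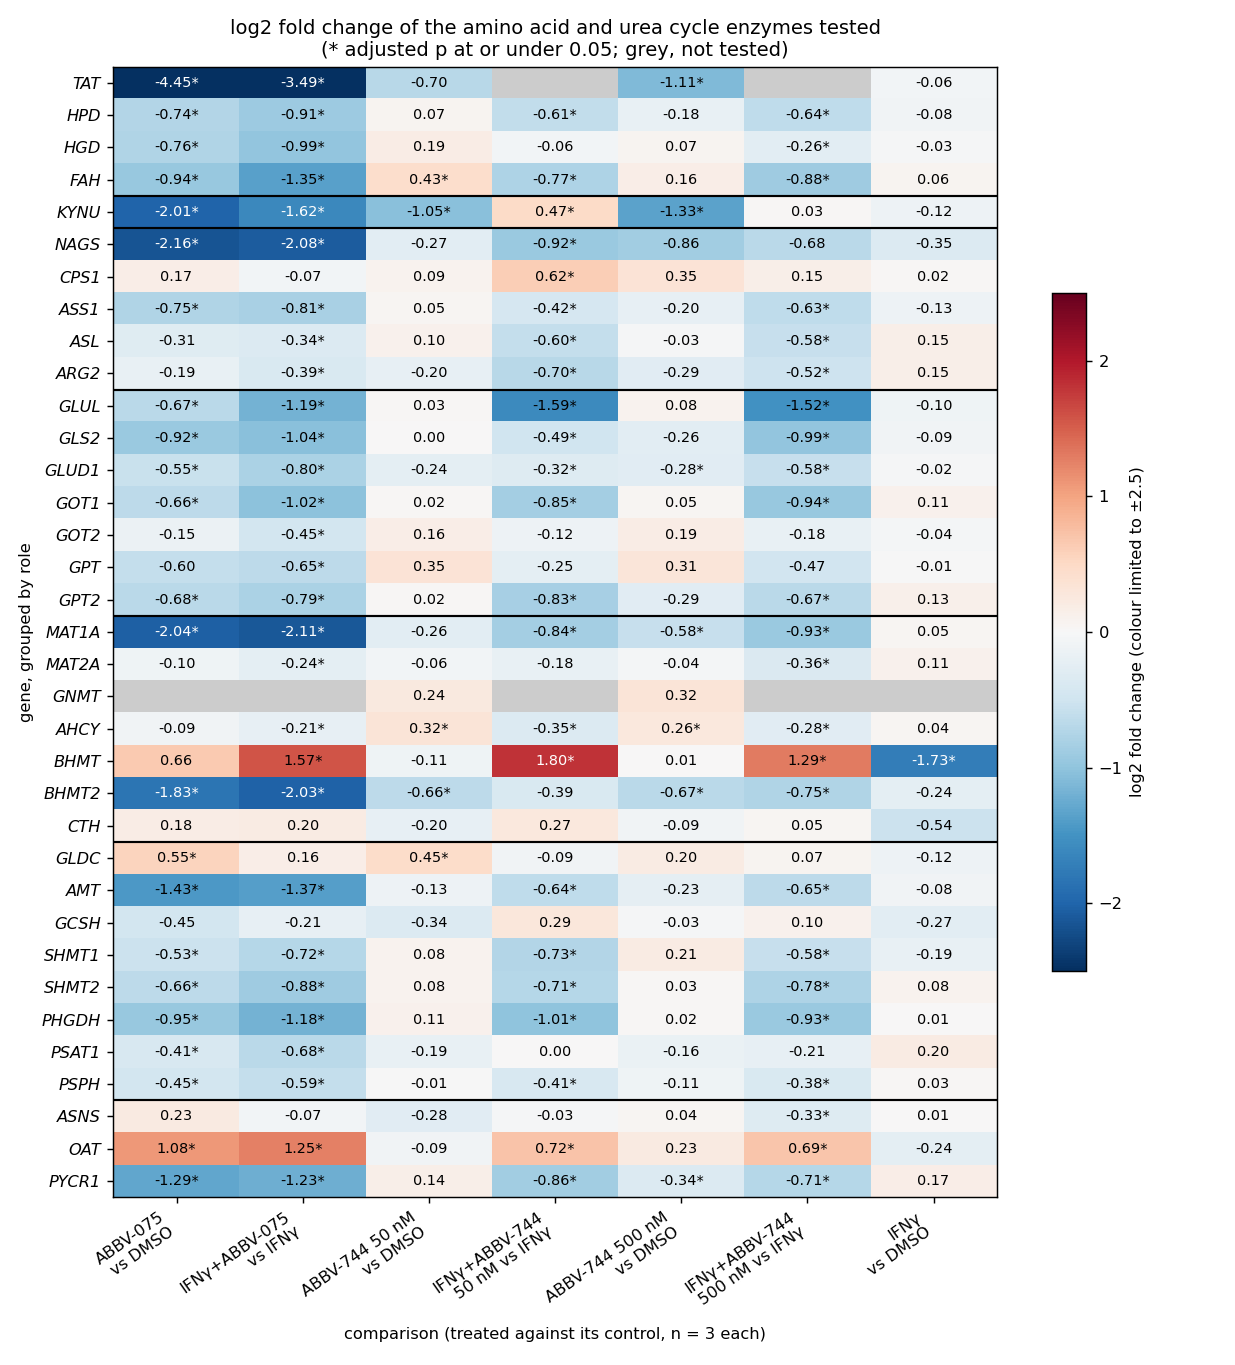
Heat map of the log2 fold change of each enzyme (rows, by role) in 7 comparisons of a treatment with its control (columns), with blue for lower and red for higher, a star where the adjusted p was at most 0.05, and grey where the gene was not tested. The columns of ABBV-075 hold 21 and 27 genes that fell, while the column of IFNγ holds 1.

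All 4 enzymes of tyrosine breakdown fell with ABBV-075, both without and with IFNγ. TAT, the transaminase that starts the pathway (chr16:71565660-71577092, GRCh38), was at 4.55, 3.77 and 5.47 CPM with DMSO and at 0.241, 0 and 0.3 CPM with ABBV-075. The ABBV-075 libraries held 1, 0 and 1 counts, so the groups were far apart but the treated level was at the floor of detection. Taking 3 counts per library as that floor, TAT was at least 5.55-fold lower (adjusted p = 0.000132), and with IFNγ in both groups at least 5.36-fold lower (adjusted p = 3.94e-06). FAH (chr15:80152490-80186946), the last enzyme of the pathway, was at 57.2, 52.7 and 51.4 CPM with DMSO and 30.3, 24.6 and 30 CPM with ABBV-075. The groups did not overlap, and the log2 fold change was -0.94 (SE 0.15, adjusted p = 0.000444). With IFNγ, FAH stood at 51.2, 55.1 and 62.5 CPM alone and at 19.1, 23.9 and 23.8 CPM after ABBV-075 was added, and it fell by 1.35. Of the steps between them, HPD, which makes homogentisate, fell by 0.74 on the log2 scale, and HGD, which opens its ring, fell by 0.76.

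KYNU, kynureninase of the tryptophan pathway (chr2:142877657-143055833), was the only member of its group with enough counts to test. Its levels were 24.1, 28.6 and 24 CPM with DMSO and 6.98, 8.02 and 4.2 CPM with ABBV-075. Every treated library lay below every control library, with a log2 fold change of -2.01 (SE 0.23, adjusted p = 4.77e-05). With IFNγ the levels were 25.9, 25.3 and 19.8 CPM, and 6.45, 8.69 and 8.12 CPM once ABBV-075 was added, a log2 fold change of -1.62. IDO1, the IFNγ-inducible enzyme that opens the tryptophan ring outside the liver, reached at most 3 counts in any library, so no change in it could be measured at this depth.

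In the urea cycle, 2 of 5 tested genes fell with ABBV-075 and 4 of 5 with ABBV-075 and IFNγ. The larger change was in NAGS (chr17:44004622-44009068), which makes N-acetylglutamate, the activator that CPS1 needs. NAGS was at 8.29, 7.09 and 5.47 CPM with DMSO and at 1.44, 1.72 and 1.5 CPM with ABBV-075. The treated libraries were low and close together, and the log2 fold change was -2.16 (SE 0.33, adjusted p = 0.00041). The same comparison with IFNγ gave 5.99, 5.89 and 4.47 CPM against 0.993, 0.814 and 2.11 CPM, a log2 fold change of -2.08. ASS1, which joins citrulline to aspartate, fell by 0.75 on the log2 scale without IFNγ and by 0.81 with it. CPS1 itself, which fixes ammonia, was at 19.8, 18.4 and 18.6 CPM with DMSO and 19.7, 25.2 and 19.8 CPM with ABBV-075. These overlap, and the 95% interval of its log2 fold change ran from -0.20 to 0.54. ASL and ARG2 had log2 fold changes of -0.31 and -0.19 that did not pass, and both fell with IFNγ present, by 0.34 and 0.39. After GC correction the ASL call with IFNγ was lost (-0.12, adjusted p = 0.236).

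Among the enzymes of glutamine, glutamate and the transaminases, 5 of 7 fell with ABBV-075 and all 7 fell with ABBV-075 and IFNγ. GLUL, glutamine synthetase (chr1:182378098-182392206), was at 585, 586 and 599 CPM with DMSO and at 241, 357 and 530 CPM with ABBV-075. All treated libraries were lower but they spread widely, and the log2 fold change of -0.67 (SE 0.21, adjusted p = 0.024) was -1.01 without ABBV-075 replicate 3 and -0.42 without ABBV-075 replicate 1. The call was lost without ABBV-075 replicate 2 and without any of the 3 DMSO replicates, where the log2 fold change was -0.63 to -0.68. With IFNγ the same gene was tight, at 554, 562 and 535 CPM against 252, 237 and 236 CPM, and fell by 1.19 on the log2 scale (SE 0.08, adjusted p = 6.85e-15). GLS2, the liver-type glutaminase (chr12:56470944-56488414), was at 20.3, 15.3 and 15.5 CPM with DMSO and 7.47, 8.02 and 12 CPM with ABBV-075. It fell by 0.92 without IFNγ (adjusted p = 0.00832) and by 1.04 with it, and the groups did not overlap.

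GOT1, the cytosolic aspartate transaminase (chr10:99396870-99430624), was at 132, 130 and 117 CPM with DMSO and 75.4, 69.9 and 98.5 CPM with ABBV-075, and fell by 0.66 (adjusted p = 0.00355). With IFNγ it was at 132, 132 and 146 CPM against 70.7, 57.6 and 74.3 CPM, a log2 fold change of -1.02. Its mitochondrial counterpart GOT2 had a log2 fold change of -0.15 without IFNγ, which did not pass, and fell by 0.45 with it, a call that GC correction removed (-0.19, adjusted p = 0.0943). GPT2, a mitochondrial alanine transaminase, fell by 0.68, the log2 fold change of its cytosolic counterpart GPT was -0.60 and did not pass, and GLUD1, glutamate dehydrogenase, fell by 0.55.

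MAT1A, the liver form of the enzyme that makes S-adenosylmethionine (chr10:80271820-80289658), had the smallest adjusted p of the 43 genes in both ABBV-075 comparisons. It was at 211, 195 and 184 CPM with DMSO and at 50.6, 41.8 and 53.1 CPM with ABBV-075. The groups were far apart relative to their spread, with a log2 fold change of -2.04 (SE 0.13, adjusted p = 7.87e-07). With IFNγ the libraries read 197, 199 and 215 CPM against 41.7, 50.2 and 50.8 CPM, a log2 fold change of -2.11 (adjusted p = 1.34e-18). MAT2A, the form that most other tissues use, had a log2 fold change of -0.10 without IFNγ (95% interval -0.32 to 0.12) and fell by 0.24 with it, or -0.14 after GC correction, which did not pass (adjusted p = 0.0589).

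The pair of methyltransferases that remake methionine, BHMT and BHMT2, lie beside each other on chromosome 5 (chr5:79111809-79132288 and chr5:79069767-79090069) and gave opposite signs. BHMT2 was at 20.3, 26.8 and 22.1 CPM with DMSO and 9.63, 5.45 and 4.2 CPM with ABBV-075, and fell by 1.83 on the log2 scale (SE 0.26, adjusted p = 0.000269). BHMT was at 4.01, 4.87 and 5.24 CPM with DMSO and 9.87, 5.16 and 7.5 CPM with ABBV-075. These BHMT levels overlap, and the log2 fold change of 0.66 did not pass (adjusted p = 0.0885). With IFNγ, BHMT was at 2.18, 0.589 and 1.4 CPM alone, from 8, 2 and 5 counts, and at 3.23, 4.34 and 5.41 CPM with ABBV-075. Here it rose by 1.57 (SE 0.43, adjusted p = 0.00221), from control libraries that were low, while BHMT2 fell by 2.03. AHCY and CTH, which handle homocysteine and cysteine synthesis, had log2 fold changes of -0.09 and 0.18 without IFNγ, and neither passed. AHCY fell by 0.21 with IFNγ, and this became 0.06 after GC correction (adjusted p = 0.465).

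For serine and glycine, 6 of 8 tested genes fell with ABBV-075 and 1 rose. AMT, the aminomethyltransferase of the glycine cleavage system (chr3:49416778-49422685), was at 27.8, 28.1 and 21.4 CPM with DMSO and 8.67, 9.46 and 11.1 CPM with ABBV-075. It fell by 1.43 (SE 0.20, adjusted p = 0.000212), and with IFNγ it was at 24.8, 23.6 and 25.1 CPM against 9.68, 9.5 and 9.33 CPM. The groups did not overlap in either comparison. GLDC, the decarboxylase of the same complex, rose by 0.55 without IFNγ (adjusted p = 0.0306) although its groups overlap, and its 0.16 with IFNγ did not pass. After GC correction GLDC passed in both comparisons, at 0.68 and 0.44. GCSH, the carrier protein of that complex, had -0.45 (adjusted p = 0.0518) without IFNγ and -0.21 with it, and after GC correction it passed in both, at -0.69 and -0.54. The 3 enzymes of serine synthesis all fell. PHGDH, the first of them (chr1:119648411-119744218), was at 203, 176 and 166 CPM with DMSO and 75.4, 88.3 and 123 CPM with ABBV-075, without overlap, and fell by 0.95 (SE 0.17, adjusted p = 0.00104). PSAT1 fell by 0.41 and PSPH by 0.45, and with IFNγ the 3 changes were -1.18, -0.68 and -0.59. SHMT1 and SHMT2, which pass the carbon of serine to folate, fell by 0.53 and 0.66.

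Proline and ornithine enzymes moved apart. PYCR1, which makes proline in mitochondria (chr17:81932384-81942412), was at 144, 131 and 147 CPM with DMSO and at 52.3, 56.2 and 67.2 CPM with ABBV-075. It fell by 1.29 (SE 0.13, adjusted p = 2.83e-05) without IFNγ and by 1.23 with it, where the levels were 146, 152 and 178 CPM against 57.6, 73.8 and 72.8 CPM. No treated library of PYCR1 reached a control library. OAT, ornithine aminotransferase (chr10:124397303-124418976), was at 117, 137 and 120 CPM with DMSO and 298, 252 and 254 CPM with ABBV-075. OAT rose by 1.08 (SE 0.12, adjusted p = 4.21e-05), and with IFNγ by 1.25, from 118, 100 and 98.8 CPM to 260, 260 and 238 CPM. It was the only enzyme that rose in both ABBV-075 comparisons as deposited, and after GC correction its values were 0.86 and 0.95 and GLDC rose in both as well.

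**Figure D2:**
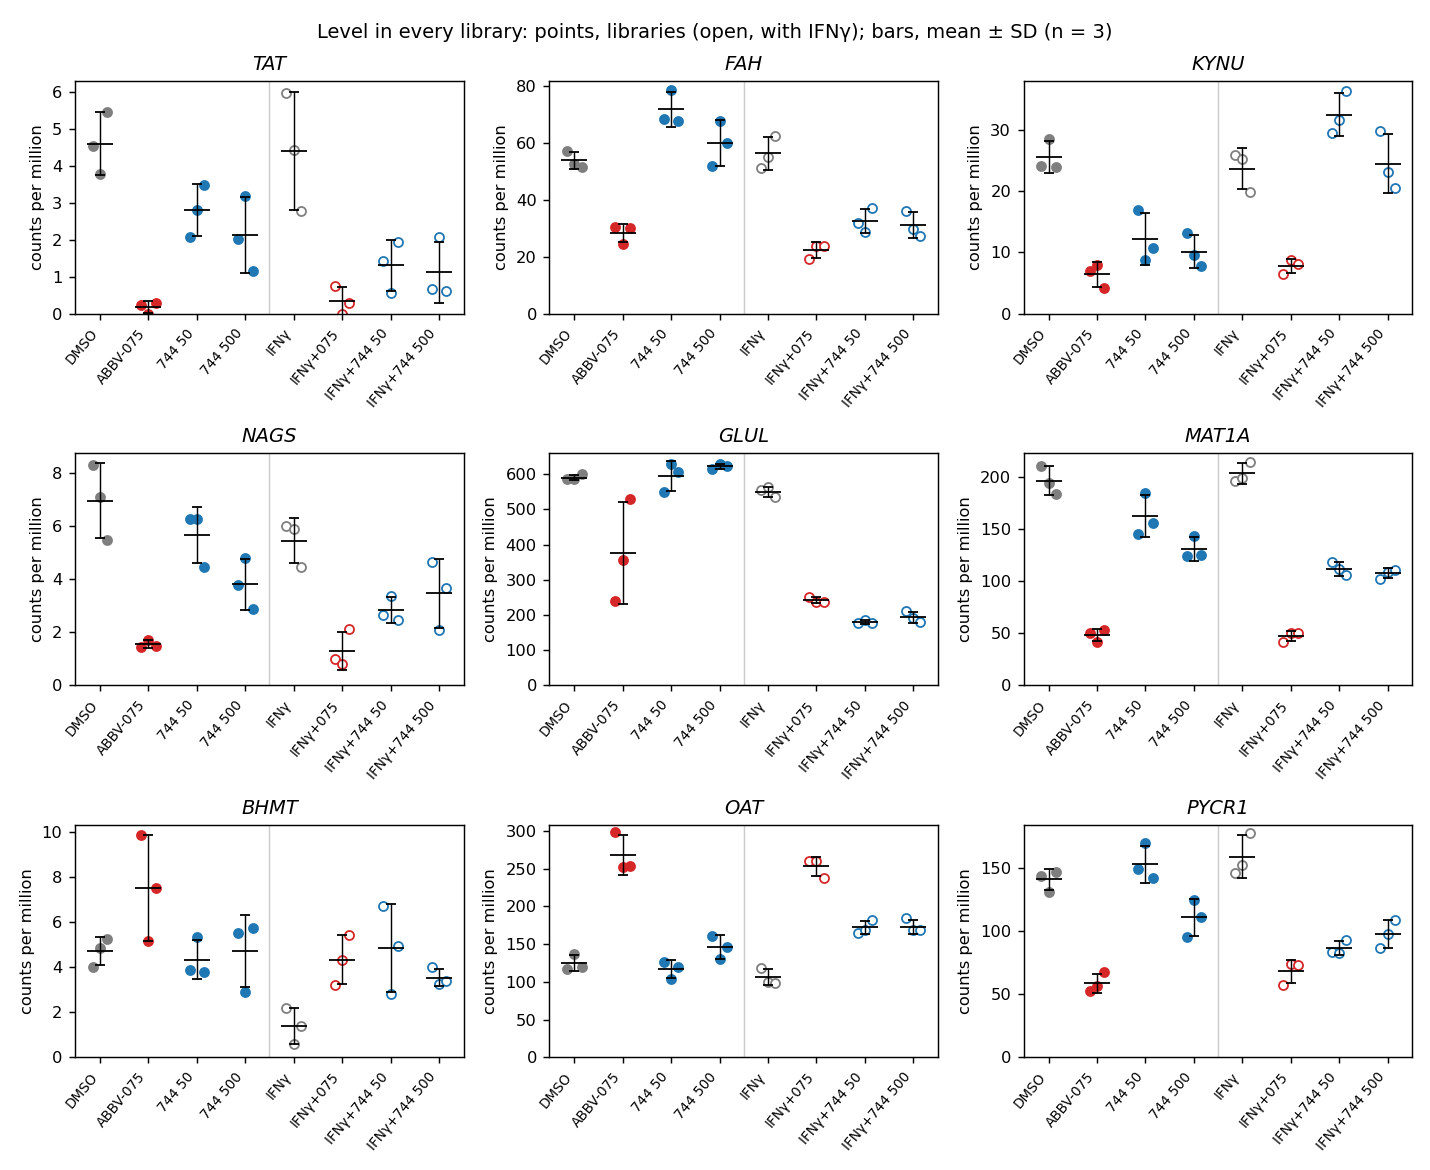
Levels in CPM of 9 enzymes in each of the 24 libraries (points) with the group mean (bar), for the 8 groups along the horizontal axis. MAT1A is lowest in both groups with ABBV-075 (means of 48.5 and 47.6 CPM), and OAT is highest there. GLUL is low in the 3 groups that hold both IFNγ and an inhibitor, and lies below DMSO with a wide spread with ABBV-075 alone.

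ASNS, asparagine synthetase, is a textbook target of ATF4, yet its levels of 46.3, 49.2 and 48.3 CPM with DMSO and 60, 54.7 and 56.1 CPM with ABBV-075 gave a log2 fold change of 0.23 that did not pass (95% interval -0.05 to 0.50). To show what lies upstream, the amino acid response element that ATF4 binds was searched as TGATGNAAN on both strands, in the 250 bases before each RefSeq start (GRCh38.p14). It was present in 3.13% of 35116 promoters and in 2 of the 35 enzymes with a promoter entry. These were ASNS and GOT1, shown here with the element in capitals, and the capitals of GOT1 read the element on the opposite strand. The ASNS stretch is chr7:97872458-97872486 on the minus strand, 68 to 60 bases before the start, and that of GOT1 is chr10:99430755-99430874 on the minus strand, 199 to 191 bases before.
ASNS: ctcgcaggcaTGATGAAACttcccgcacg
GOT1: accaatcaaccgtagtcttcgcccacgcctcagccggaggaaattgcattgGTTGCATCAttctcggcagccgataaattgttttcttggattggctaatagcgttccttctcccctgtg
GOT1 fell with ABBV-075 and ASNS did not pass the test, and the difference between them was not tested.

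The second motif was CACGTG, the E-box that MYC and related factors bind, chosen after the values were seen. It stood in 6.34% of all promoters and in 3 of the 35 enzymes. The letters are in capitals in each stretch: CPS1 at chr2:210519662-210519687 (plus strand), ASS1 at chr9:130444830-130444955 (plus strand) and HPD at chr12:121888612-121888724 (minus strand). The stretch of HPD lies well upstream of the bounds that GENCODE gives the gene (chr12:121839527-121863596) and does not adjoin them. That of CPS1 lies within its gene, and those of CPS1 and ASNS overlap an annotated UTR and are shorter for that reason.
CPS1: tagacacaggCACGTGacccaagccc
ASS1: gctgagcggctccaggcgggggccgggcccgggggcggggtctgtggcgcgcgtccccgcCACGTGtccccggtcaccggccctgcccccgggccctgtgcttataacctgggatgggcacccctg
HPD: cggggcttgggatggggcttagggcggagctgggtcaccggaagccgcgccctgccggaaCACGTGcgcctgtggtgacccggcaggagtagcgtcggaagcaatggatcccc
ASS1 and HPD fell with ABBV-075 and CPS1 did not pass. A match of letters is a description of the window and not a bound site. MYC itself fell by 0.73 on the log2 scale. HGD, TAT, GPT, PRODH, GPT2, PSPH, SHMT2 and PYCR1 had no promoter entry.

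As deposited, ABBV-744 without IFNγ moved few of the enzymes. At 50 nM, 2 of 35 tested fell and 3 rose, where 10.1% of all genes fell and 8.81% rose. At 500 nM, 6 fell and 1 rose, where 7.8% and 7.48% of all genes did. AHCY rose at both doses, and FAH and GLDC rose at 50 nM. KYNU and BHMT2 fell at both doses. KYNU was at 17, 8.78 and 10.8 CPM with 50 nM and at 13.1, 9.59 and 7.75 CPM with 500 nM, all below the DMSO libraries. The log2 fold changes were -1.05 (adjusted p = 0.000756) and -1.33 (adjusted p = 1.47e-05), or -0.70 and -1.15 after correction for GC content. BHMT2 was at 14.6, 15.1 and 13.9 CPM with 50 nM and at 18, 12.5 and 12.9 CPM with 500 nM, and fell by 0.66 and 0.67, and by 0.66 and 0.68 after GC correction. That call was lost without DMSO replicate 2 at both doses (-0.53 and -0.54), without ABBV-744 50 nM replicate 3 (-0.64) and without ABBV-744 500 nM replicate 3 (-0.59).

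MAT1A was at 146, 185 and 156 CPM with 50 nM, which overlaps DMSO, and at 124, 144 and 125 CPM with 500 nM, which does not. Its log2 fold change of -0.26 did not pass at 50 nM, and it fell by 0.58 at 500 nM (SE 0.10, adjusted p = 8.89e-05). After GC correction MAT1A passed at both doses, with -0.44 (adjusted p = 0.000392) and -0.69. TAT, at 2.03, 3.2 and 1.15 CPM with 500 nM, fell by 1.11 (adjusted p = 0.0484). This call for TAT was lost after GC correction (-1.06, adjusted p = 0.0549), without any of the 3 DMSO replicates (-1.24 to -0.96), without ABBV-744 500 nM replicate 1 (-1.09) and without replicate 3 of that group (-0.81). PYCR1 fell by 0.34 at 500 nM, or 0.49 after GC correction. GLUD1 fell by 0.28, a call that GC correction removed (-0.12, adjusted p = 0.188). The PYCR1 call was lost without any DMSO replicate (-0.39 to -0.31), and without ABBV-744 500 nM replicate 1 (-0.24) or replicate 3 (-0.35). FAH went the other way from its response to ABBV-075. It was at 68.4, 78.7 and 67.8 CPM with ABBV-744 at 50 nM, above every DMSO library, and rose by 0.43 (adjusted p = 0.0123), or 0.33 after GC correction. The FAH call was lost without DMSO replicate 2 (0.42) or DMSO replicate 3 (0.40).

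The compounds were compared directly at the dose they share, 50 nM, in 33 tested enzymes, with the caution that the time of ABBV-744 is not known. With ABBV-075, 21 enzymes were lower and 2 were higher than with ABBV-744, against 19.4% and 21.4% of all genes. On the log2 scale, the difference was -1.85 in NAGS (SE 0.34, adjusted p = 0.00296), -1.75 in MAT1A (SE 0.15, adjusted p = 0.000113), -1.40 in PYCR1, -1.35 in FAH and -0.93 in KYNU. After GC correction these were -1.50, -1.41, -1.05, -1.13 and -1.75, so the order of the enzymes depended on the correction. The correction removed the calls of HPD (-0.78 to -0.41, adjusted p = 0.052) and ASL (-0.38 to -0.01, adjusted p = 0.945). The KYNU call was lost without any of the 3 ABBV-075 replicates (-1.09 to -0.71) and without ABBV-744 50 nM replicate 1 (-0.60) or 3 (-1.01). OAT was higher by 1.19 (adjusted p = 0.000331) and ASNS by 0.53 (adjusted p = 0.0234). After GC correction ASNS was no longer past the threshold (0.25, adjusted p = 0.16), while OAT was (0.73). Without ABBV-075 replicate 2 the count of lower enzymes was 13. GLUD1 did not pass, with a difference of -0.29 (95% interval -0.55 to -0.02 before adjustment), and passed after GC correction at -0.89 (adjusted p = 0.00133). BHMT did not pass either way, with 0.79 (0.10 to 1.49 before adjustment) and 0.70.

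Between the doses of ABBV-744, no enzyme of 34 differed by edgeR, where 0.0274% of all genes were lower at 500 nM and 0% higher. This depended on how replicates were treated. With replicate numbers fitted as a block, 140 of all genes were lower and 180 higher, and a few enzymes passed, as counted below. Before adjustment and without the block, 5 enzymes had p under 0.05, and DESeq2 called 0. The widest of these was PYCR1, with 149, 170 and 142 CPM at 50 nM and 95.5, 125 and 111 CPM at 500 nM. These levels do not overlap, and the difference was -0.48 on the log2 scale, with a 95% interval of -0.73 to -0.22 and an adjusted p of 0.404.

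IFNγ alone changed 1 enzyme of 34. BHMT fell by 1.73 on the log2 scale (SE 0.42, adjusted p = 0.00883), where 0.695% of all genes fell and 2.76% rose. Its libraries held 8, 2 and 5 counts, and the call was lost without IFNγ replicate 2 (-1.39) and without DMSO replicate 3 (-1.65). Before adjustment 4 enzymes had p under 0.05, and DESeq2 called 0.

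Once IFNγ was present in both groups, many of the enzymes were lower with ABBV-744. At 50 nM, 19 of 33 fell and 4 rose, against 24.3% and 27.4% of all genes. At 500 nM, 22 of 33 fell and 2 rose, against 22.8% and 22.9%. The counts after GC correction were 17 and 3 at 50 nM, and 18 and 2 at 500 nM. In the same libraries the 8 hepatocyte markers summed to 13058 to 13737 CPM and 12693 to 13654 CPM, against 14278 to 15444 CPM with IFNγ alone. Single hepatocyte markers did not move together. FGB rose by 1.04 and 0.95, and AFP by 0.83 and 0.59. SERPINA1 fell by 0.55 and 0.56, TTR by 0.43 and 0.35, and TF by 0.43 and 0.42. ALB, APOA1 and HNF4A did not pass. After GC correction ALB fell and APOA1 and HNF4A rose at both doses, and AFP passed at 50 nM only. The calls of FGB, SERPINA1, TTR and TF held. The 7 markers of other cell types summed to 8.9 to 10.4 CPM and 7.99 to 13.3 CPM, against 20.7 to 24.2 CPM, with CD68 lower by log2 fold changes of -1.27 and -1.18. The part of these markers in the result was not tested. GLUL fell most. With IFNγ alone it was at 554, 562 and 535 CPM, with ABBV-744 at 50 nM added at 177, 186 and 177 CPM, and with 500 nM added at 210, 192 and 179 CPM. The log2 fold changes were -1.59 (SE 0.08, adjusted p = 1.25e-16) and -1.52 (SE 0.09, adjusted p = 3.13e-14), and the correction for GC content left them at -1.70 and -1.52. Without IFNγ the same doses gave 548, 629 and 607 CPM, and 614, 629 and 623 CPM, close to the 585 to 599 CPM of DMSO.

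GOT1 was at 72.4, 74.7 and 76.7 CPM with IFNγ and ABBV-744 at 50 nM, and at 83.1, 63.7 and 70 CPM with 500 nM. All 6 libraries were below the 3 of IFNγ alone, and GOT1 fell by 0.85 and 0.94, or 0.69 and 0.72 after GC correction. The other aspartate transaminase, GOT2, did not pass at either dose (-0.12 and -0.18), nor did GPT (-0.25 and -0.47). PHGDH was at 90.7, 86.9 and 91 CPM, and at 90.1, 91.2 and 110 CPM, against 182, 189 and 178 CPM with IFNγ alone. It fell by 1.01 and 0.93, and by 0.74 and 0.65 after GC correction. PSPH, the last enzyme of serine synthesis, fell by 0.41 and 0.38, or -0.21 and -0.14 after correction, the latter not passing (adjusted p = 0.119). PSAT1, between them, did not pass as deposited (0.00 and -0.21), and passed after correction at -0.31 and -0.40. FAH, which had risen with 50 nM alone, was at 32, 28.5 and 37 CPM and at 36.2, 29.6 and 27.3 CPM, and fell by 0.77 and 0.88, or 0.55 and 0.62 after GC correction. MAT1A was at 119, 112 and 106 CPM and at 102, 109 and 111 CPM, and fell by 0.84 and 0.93, or 0.51 and 0.64 after GC correction. PYCR1 fell by 0.86 and 0.71, or 0.55 and 0.54 after correction, and AMT by 0.64 and 0.65. After GC correction AMT was no longer past the threshold (-0.33, adjusted p = 0.131, and -0.36, adjusted p = 0.0782).

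OAT and BHMT rose at both doses in these comparisons. CPS1 rose at 50 nM by 0.62 (adjusted p = 0.000695), or 0.48 after GC correction, and did not pass at 500 nM (0.15). OAT was at 164, 169 and 182 CPM with IFNγ and ABBV-744 at 50 nM and at 184, 168 and 168 CPM with 500 nM, and rose by 0.72 and 0.69, or 0.25 and 0.36 after GC correction. BHMT was at 6.74, 2.82 and 4.96 CPM, and at 3.99, 3.26 and 3.38 CPM, against the low control of 2.18, 0.589 and 1.4 CPM. It rose by 1.80 (adjusted p = 0.000844) and 1.29 (adjusted p = 0.0192), with 1.71 and 1.30 after GC correction, and the call at 500 nM was lost without IFNγ replicate 2 (0.95), without IFNγ replicate 3 (1.27) and without replicate 1 of the combination (1.22). KYNU depended on the correction. At 50 nM it was at 29.6, 31.6 and 36.4 CPM and rose by 0.47 (adjusted p = 0.00729) as deposited, and it fell by 0.40 (adjusted p = 0.0212) after GC correction. The rise was lost without IFNγ replicate 3 (0.35) and without replicate 3 of the combination (0.37). At 500 nM it was at 29.9, 23.1 and 20.6 CPM, which overlaps IFNγ alone, with a log2 fold change of 0.03 that did not pass as deposited and -0.68 (adjusted p = 0.00051) after GC correction. The transcript of KYNU has a GC content of 36.4%. NAGS, at 2.65, 3.38 and 2.48 CPM with 50 nM, fell by 0.92 (adjusted p = 0.0208), and its -0.62 after GC correction did not pass (adjusted p = 0.158). The NAGS call was also lost without IFNγ replicate 1 (-0.84) or 2 (-0.86), and without replicate 1 (-0.88) or 3 (-0.86) of the combination. ARG2 fell by 0.70 and 0.52 at the lower and higher dose, or 0.75 and 0.47 after GC correction. ASL fell by 0.60 and 0.58, or 0.27 and 0.32 after correction. ASS1 fell by 0.42 and 0.63. After correction ASS1 did not pass at 50 nM (-0.09, adjusted p = 0.478) and passed at 500 nM (-0.35). TAT was too low to be tested here, at 1.44, 0.564 and 1.93 CPM with 50 nM and 0.665, 2.07 and 0.614 CPM with 500 nM.

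Whether an inhibitor acted differently with and without IFNγ was tested as an interaction, the effect with IFNγ minus the effect without it. For ABBV-075, 0 of 34 enzymes passed by edgeR, as did 0.0347% of all genes. Before adjustment 2 had p under 0.05, and DESeq2 called 0. For ABBV-744 at 50 nM, 22 of 36 passed, where 51.6% of all genes did. Of these 18 were negative and 4 positive, against 26.5% and 25% of all genes. At 500 nM, 16 of 36 passed, where 33.5% of all genes did. Of these 14 were negative and 2 positive, against 15% and 18.5% of all genes. The median over all genes was itself shifted, by -0.14 and -0.09, and the enzymes' medians were -0.54 and -0.35. After GC correction 9 enzymes passed at each dose, 8 of them negative at 50 nM and all 9 at 500 nM. Of 11451 genes tested at 50 nM, 1264 were then negative and 1071 positive. At 500 nM these were 1052 and 862 of 11428.

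GLUL had the largest negative interaction that held at both doses, -1.65 (adjusted p = 6.06e-12) and -1.58 (adjusted p = 2.5e-11), or -1.79 and -1.64 after GC correction. FAH gave -1.23 and -1.01, GOT1 -0.90 and -0.96, and PHGDH -1.15 and -0.93. These 3 enzymes also passed after GC correction at both doses, with -0.88 and -0.72 for FAH, -0.65 and -0.73 for GOT1, and -0.72 and -0.59 for PHGDH. BHMT had 1.89 at 50 nM (1.76 corrected, adjusted p = 0.0186), and its 1.30 at 500 nM did not pass. The interactions of KYNU, OAT and MAT1A did not pass after correction. At 50 nM KYNU went from 1.5 to 0.30, OAT from 0.77 to 0.11, and MAT1A from -0.60 to -0.08. At 500 nM KYNU went from 1.38 to 0.47, OAT from 0.49 to 0.01, MAT1A from -0.33 to 0.05, and GLS2 from -0.72 to -0.36 (adjusted p = 0.41). PYCR1 passed at 50 nM with -1.03, and with -0.44 after correction. GLUD1, with a GC content of 39.2%, went the other way, from -0.11 to -1.02. CBS, at 2 to 20 counts, had -2.06 at 50 nM (adjusted p = 0.0191), and its -1.51 after correction did not pass.

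**Figure D3:**
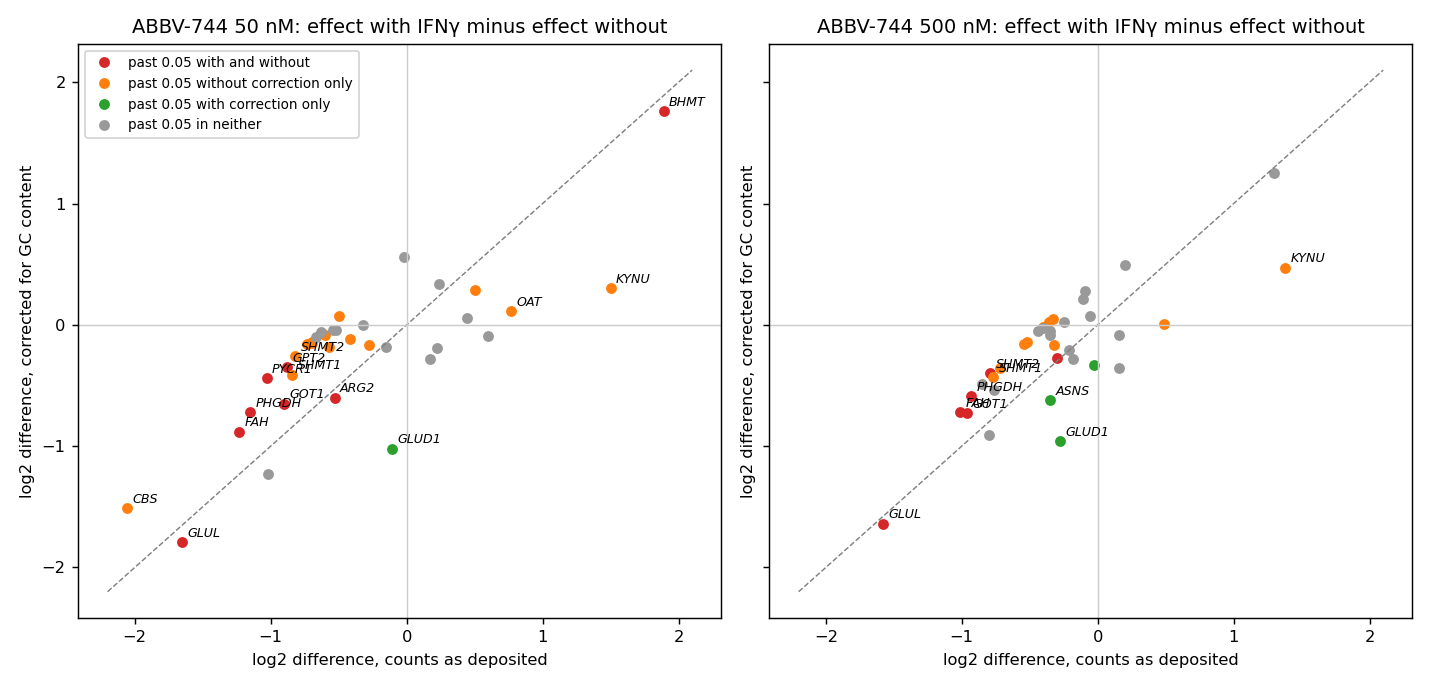
Difference between the effect of ABBV-744 with and without IFNγ (log2) as deposited (horizontal axis) and after GC correction (vertical axis), a panel for each dose and a point for each enzyme, with the diagonal marking equal values. GLUL stays at -1.65 and -1.79 at 50 nM, while KYNU drops from 1.5 to 0.30 and GLUD1 moves from -0.11 to -1.02.

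**Figure D4:**
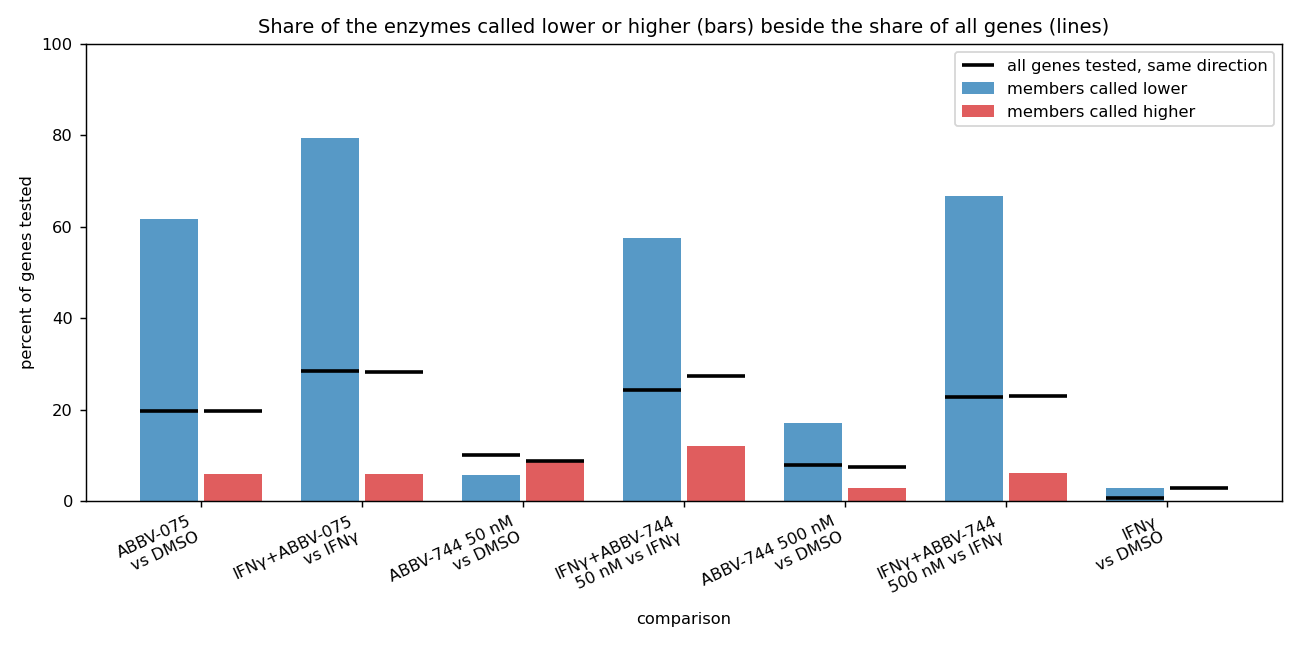
Percent of the tested enzymes that fell (blue bars) or rose (red bars, beside them) in each of 7 comparisons of a treatment with its control, with black lines for the percent of all genes. The enzymes' share that fell is above the line for both ABBV-075 comparisons, where 19.6% and 28.4% of all genes fell.

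Further enzymes of amino acid metabolism were more mixed than these 43. Of a list of 80 such genes in the files, 73 were tested with ABBV-075 against DMSO, where 22 fell and 16 rose, with a median log2 fold change of -0.22, beside 19.6% and 19.8% of all genes. BCAT2, a transaminase of branched-chain amino acids, fell by 2.20, PIPOX, which oxidizes pipecolate, fell by 1.73, and AGXT, which transaminates glyoxylate, fell by 1.36. DLD, a shared subunit of the glycine cleavage system, rose by 1.09, and SRR, serine racemase, by 1.08. With IFNγ, 27 of 71 fell and 17 rose, beside 28.4% and 28.2% of all genes. ABBV-744 against DMSO gave 8 lower and 12 higher of 72 at 50 nM and 6 lower and 12 higher of 73 at 500 nM, beside 10.1% and 8.81%, and 7.8% and 7.48%, of all genes, so the shares that fell were near the background. After GC correction they were 2 lower and 7 higher at 50 nM, and 7 and 11 at 500 nM. Of the genes of the amino acid response, 8 of 18 fell and 2 rose with ABBV-075. TRIB3, a target of ATF4, fell by 1.81, STC2 by 1.48 and the cystine transporter gene SLC7A11 by 1.06, while SLC38A2, a neutral amino acid transporter, rose by 1.04. ATF4 itself fell by 0.31 (adjusted p = 0.0389), a call that GC correction removed (-0.13, adjusted p = 0.214). With ABBV-744 and IFNγ against IFNγ, 9 of 19 response genes fell and 3 rose at 50 nM, and 10 fell and 1 rose at 500 nM, where 24.3% and 27.4%, and 22.8% and 22.9%, of all genes did. After GC correction 7 fell and 2 rose at each dose.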

How the data were processed

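Ribosomal RNA was depleted by the authors before directional libraries were made and sequenced. Per the labels, the tools were CASAVA 1.8.2, Trimmomatic 0.33, STAR 2.7.1 and DESeq2, with the genome hg38. The annotation used for counting is not given in the sources used here. The deposited values are raw counts for each gene symbol, not normalized, and the counts on the gene strand (98.3% to 98.5% of gene reads) were used. Rows that name no gene were left out of the totals, namely 56.0% to 69.4% of reads for several alignments and 14.8% to 25.3% for no gene, while 12.0% to 16.8% lay on genes.

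Fits were made in R 4.3.3 with edgeR 4.0.16 (filterByExpr, TMM, glmQLFit, glmQLFTest) on the groups compared, without covariates, and adjusted over all genes tested. The SE is the absolute log2 fold change divided by the square root of F. An interaction used 12 libraries. The named genes with values in every library are the 14 called genes whose log2 fold change was 1 or more in size, with no overlap of the groups, in any comparison with a control. GOT2, ASNS, CPS1 and others are given where a role needs them. The 43 genes and the lists were chosen with earlier results of these data known. Of the 26475 symbols, 24545 were paired with GENCODE, which gave positions (GRCh38) and GC content. The GC correction subtracts a lowess curve (span 0.3) in each library. Alternatives were DESeq2 1.42.0, RLE, library size only, other filters, all 24 libraries, both strands, the replicate block and leaving out each replicate. The fits were tested on simulated data. Tables and plots were made with Python 3.11.15, numpy 2.4.6, pandas 2.3.3, scipy 1.17.1 and matplotlib 3.10.9. JQ1 and OTX015 were not analysed here. Replicates differed by more than sampling noise. Replicate numbers were not used as pairs. Some genes that the rule for the lists would name are not reported here.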

Additional observations from a re-analysis of the deposited data

Results flagged for a closer look

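The effect of ABBV-744 differed with and without IFNγ by the interaction test in the enzymes named here, and the values are on the log2 scale, with IFNγ minus without. Over all genes, 51.6% passed at 50 nM and 33.5% at 500 nM. At 50 nM, 22 enzymes passed. Among the 14 enzymes described with values in every library, those that passed were GLUL at -1.65, FAH at -1.23, PHGDH at -1.15, PYCR1 at -1.03, GOT1 at -0.90 and MAT1A at -0.60, and, with a positive sign, BHMT at 1.89, KYNU at 1.5 and OAT at 0.77. At 500 nM, 16 passed, among them, of the same 14, GLUL at -1.58, FAH at -1.01, GOT1 at -0.96, PHGDH at -0.93, GLS2 at -0.72, MAT1A at -0.33, KYNU at 1.38 and OAT at 0.49. The level of genes moved with GC content in the same libraries, with a rank correlation of the interaction with GC content of -0.77 at 50 nM and -0.66 at 500 nM over all genes. The calls of GLS2 and MAT1A at 500 nM were each lost in 9 of the fits that left out a library, which gave -0.86 to -0.61 and -0.39 to -0.26. After GC correction 9 enzymes passed at each dose. Over all genes, 1264 were then negative and 1071 positive at 50 nM, and 1052 and 862 at 500 nM. The calls of KYNU, OAT and MAT1A were lost at both doses, and that of GLS2 at 500 nM. The part of library preparation in this trend was not tested.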

How the results depend on the processing

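Of the counts of enzymes called, 301 values under the alternatives were within 1.5 times the reported count and 54 were not. Of the single results, 1378 kept direction and call, 115 kept only the direction (65 of them with a replicate left out), and 4 changed sign. KYNU with ABBV-744 50 nM and IFNγ against IFNγ was -0.40 with the GC correction and -0.41 with the GC correction and the replicate block, and the interaction of MAT1A at 500 nM was 0.05 with both. Replicate numbers were not taken as pairs, since in no comparison was every correlation of same-numbered deviations over 0.1 (range -0.196 to 0.387). That limit cannot show that the numbers do not pair. Between the doses of ABBV-744, every library correlated best with its own number (0.279, 0.383 and 0.0473). There the replicate block gave 140 lower and 180 higher over all genes, against 3 and 0 without it. With the replicate block, 3 enzymes were lower and 1 higher at 500 nM than at 50 nM (1 lower with the GC correction too), and ABBV-744 500 nM against DMSO gave 3 lower and 0 higher.

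Scaling to library size only gave 4 lower and 1 higher for ABBV-744 50 nM against DMSO, 0 higher for 500 nM, and 10 interactions at 500 nM. It moved the median of all genes by -0.10 at 50 nM, and the share of calls that were lower from 53.4% to 74.6%, at 500 nM from 51.1% to 69.2%. In the interactions that share went from 51.5% to 33.9% at 50 nM and from 44.7% to 32.3% at 500 nM. The GC correction, alone or with the block, gave 1 higher for ABBV-744 50 nM against DMSO, 1 higher for ABBV-075 against ABBV-744, 9 interactions at 50 nM, and 9 (alone) or 8 (with the block) at 500 nM, and alone 1 higher for IFNγ. DESeq2 gave 0 lower for IFNγ, 1 higher for ABBV-744 500 nM with IFNγ, and 10 interactions at 500 nM. At least 10 counts in every library gave 0 lower for IFNγ and 1 higher for ABBV-075 with IFNγ and for ABBV-744 500 nM with IFNγ, since low genes were then not tested. No filter gave 10 interactions at 500 nM, and all 24 libraries in the fit gave 0 higher for ABBV-744 500 nM against DMSO. The cause was not tested for the others.

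With each replicate left out in turn, ABBV-075 against DMSO gave 19 to 25 lower and 1 to 2 higher, and with IFNγ 23 to 26 and 2 to 2. ABBV-744 against DMSO gave 1 to 4 lower and 0 to 3 higher at 50 nM, and 2 to 9 and 0 to 2 at 500 nM. With IFNγ these were 18 to 20 and 3 to 5 at 50 nM, and 20 to 22 and 1 to 2 at 500 nM. IFNγ gave 0 to 2 lower and 0 higher, ABBV-075 against ABBV-744 gave 13 to 22 lower and 1 to 2 higher, and the doses gave 0 and 0. The interactions numbered 0 to 1 for ABBV-075, 18 to 23 for ABBV-744 at 50 nM and 10 to 16 at 500 nM. TAT, BHMT and NAGS rest on few counts, and 8 of the 43 enzymes could not be tested against DMSO with any inhibitor for lack of counts.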

Other observations

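Among the other amino acid enzymes with the largest changes when IFNγ and ABBV-744 were combined, 3 act on branched-chain amino acids, and they went both ways. BCKDHA, a subunit of the branched-chain dehydrogenase, fell by 1.07 at 50 nM and 1.06 at 500 nM against IFNγ alone, or 0.75 and 0.83 after GC correction. DBT, another subunit of the same complex, rose by 1.29 and 1.51 (0.65 and 1.02 corrected), and HIBCH, a later step of valine breakdown, rose by 1.44 and 1.17 (1.24 and 1.08 corrected). They were named by size, and no list of that pathway was tested.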
